A study of Mus musculus with 44 samples.

Results

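The genes described here are 9 dual-specificity phosphatases (Dusp1, Dusp2, Dusp4, Dusp5, Dusp6, Dusp8, Dusp10, Dusp14 and Dusp16) and Zfp36, which encodes the RNA-binding protein tristetraprolin. They were chosen by name, as the 10 rows with these symbols among the 24940 genes listed in each of 4 RNA-seq count tables. All 10 passed the filter on low counts in all 4 tables. Dusp14 passed it through the group where it was highest in each table (WT_KLA, KLA, Pgc1b_flox_Cre_KLA and TBK1i_KLA). Its calls in comparisons with these groups were therefore not independent of the filter, and the counts of members called below include them. Dual-specificity phosphatases that act on MAP kinases remove the activating phosphates from ERK, JNK and p38, and several of them are themselves induced by the kinases they switch off. Tristetraprolin binds AU-rich elements in the messages of Tnf and other cytokines and speeds their decay. In macrophages both are known as negative feedback on Toll-like receptor signaling.

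All 44 libraries came from mouse bone marrow-derived macrophages (BMDMs) of the C57BL/6 background, in 22 groups of 2 replicates. In the first table (24 libraries, called the NCoR table here), cells with the NCoR flox/flox genotype (WT) and cells with NCoR flox/flox and LysMCre (NKO) received vehicle (Veh), KLA, PolyIC, IFNb or IL4 for 6 h or RANKL for 12 h. KLA is an agonist of TLR4, poly I:C is an analog of double-stranded RNA sensed by TLR3, and RANKL drives osteoclast formation. NCoR is a scaffold of the HDAC3 corepressor complex, and LysMCre, expressed from the Lyz2 locus, deletes floxed alleles in myeloid cells. The second table held wild type cells with Veh, KLA or KLA plus RGFP966, which inhibits HDAC3. The third held Pgc1b flox/flox cells without and with LysMCre, under Veh or KLA, where Pgc1b encodes the coactivator PGC1β. The fourth held wild type cells with DMSO and Veh, DMSO and KLA, or KLA plus TBK1i, which inhibits the kinase TBK1. Vehicle and KLA lasted 6 h in these tables by the sample records. Per the study's methods, RGFP966 and TBK1i were added with a serum starvation of 12 h that preceded KLA. Cells without and with Cre in the NCoR and Pgc1b tables carried floxed alleles alike. Nothing in the records says whether replicates came from separate mice. The p-values rest on the spread between replicate libraries, estimated over all groups of a table, and may not cover the spread between mice.

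Counts in genes ranged from 8323493 to 16783155 per library. Macrophage markers (6 genes such as Csf1r and Adgre1) summed to 4160 to 10292 counts-per-million (CPM) in all libraries. Ncor1 was lower in NKO than in WT under all 6 treatments, with log2 fold changes from -1.78 to -1.41. Date stamps in the library names put the Veh, PolyIC, IFNb and IL4 libraries of both genotypes on 1 day, the RANKL libraries 536 days earlier, WT_KLA 115 days earlier and NKO_KLA 1516 days earlier. NKO_KLA also had 0 counts of Xist and at least 578 counts of 4 Y-linked genes, whereas the other 11 groups of that table had at least 5206 counts of Xist. At KLA, genotype, date and sex therefore cannot be told apart, and the WT responses to KLA and RANKL were measured against vehicle libraries of another date. The RANKL libraries, whose names call the cells osteoclasts, carried 831 to 1183 CPM of neutrophil and precursor markers (6 genes), against at most 22.1 CPM in any other group, and their macrophage sum was 4160 to 5283 CPM. Fibroblast markers (4 genes) summed to 87.8 to 96.4 CPM in WT_Veh, to 193 to 323 CPM in the RANKL libraries of both genotypes and to 0.164 to 8.25 CPM in the KLA libraries of the NCoR table. Osteoclast markers (5 genes, Calcr at 0 in NKO_RANKL) summed to 90.4 to 111 CPM with RANKL, to 53.8 to 66.8 CPM in WT under Veh, PolyIC, IFNb and IL4 and to 141 to 169 CPM in NKO under the same 4 treatments. The part of these cells in the values below was not tested, and in bulk RNA fewer cells of a type and less RNA per cell cannot be told apart.

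The 250 bases before the RefSeq start (GRCm38.p6, the same assembly as mm10) are shown for 4 of the 10 genes. In the NCoR table Dusp2 and Dusp16 had the largest responses of WT cells to KLA among the members with detectable vehicle levels. Dusp1 and Zfp36 were called lower with TBK1i and with Cre in Pgc1b flox/flox cells during KLA. Dusp6 and Dusp10, whose windows are not shown, were also called lower in both of these comparisons. Capitals mark matches to the motifs searched on both strands: the cAMP response element (CRE) TGACGTCA, its core TGACG (contained in the full CRE), the AP-1 motif TGANTCA, the TATA box TATAAA, the NFκB motif and the CArG box that serum response factor binds.
Dusp1 (chr17:26508473-26508722, minus strand): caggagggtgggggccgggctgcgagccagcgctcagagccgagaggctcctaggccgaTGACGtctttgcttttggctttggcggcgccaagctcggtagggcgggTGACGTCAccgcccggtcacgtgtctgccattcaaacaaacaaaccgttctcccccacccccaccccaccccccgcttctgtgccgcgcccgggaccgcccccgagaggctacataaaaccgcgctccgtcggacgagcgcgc
Zfp36 (chr7:28379229-28379478, minus strand): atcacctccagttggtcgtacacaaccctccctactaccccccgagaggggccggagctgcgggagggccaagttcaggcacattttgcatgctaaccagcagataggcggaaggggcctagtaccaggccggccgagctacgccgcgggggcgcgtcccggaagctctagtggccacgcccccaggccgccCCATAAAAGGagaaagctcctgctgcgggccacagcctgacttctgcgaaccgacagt
Dusp2 (chr2:127335909-127336158, plus strand): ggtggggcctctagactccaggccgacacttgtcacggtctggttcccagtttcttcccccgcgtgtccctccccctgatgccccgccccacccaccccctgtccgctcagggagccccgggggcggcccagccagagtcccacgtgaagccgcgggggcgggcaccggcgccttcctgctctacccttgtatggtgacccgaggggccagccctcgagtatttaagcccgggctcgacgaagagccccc
Dusp16 (chr6:134792629-134792878, minus strand): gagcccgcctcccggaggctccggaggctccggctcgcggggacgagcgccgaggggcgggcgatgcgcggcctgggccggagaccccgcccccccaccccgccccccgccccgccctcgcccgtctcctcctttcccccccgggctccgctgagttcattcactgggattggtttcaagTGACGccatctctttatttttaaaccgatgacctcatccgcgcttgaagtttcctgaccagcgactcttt
The Dusp1 window held a full CRE from 143 to 136 bases before the start and a core motif from 191 to 187. Zfp36 held a CArG box from 58 to 49 bases before the start, and Dusp16 held a CRE core from 70 to 66. The Dusp2 window held none of these motifs. Over the 9 members with a promoter in the table (Dusp4 was not matched), a full CRE was found in 2 (Dusp1 and Dusp8), a core motif in 4 and a CArG box in 2 (Dusp5 and Zfp36), whereas 1.62%, 17.9% and 1.40% of all 27018 promoters held them. The AP-1, NFκB and TATA motifs were found in 0 of the 9, against 6.87%, 7.01% and 13.0% of all promoters. A match is a description of letters in this window and no evidence of binding.

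Positions are those of the deposited tables (mm10), in which each member is counted over the exons of 1 RefSeq transcript. Dusp1 is NM_013642, chr17:26505591-26508472, Dusp2 NM_010090, chr2:127336159-127338377, Dusp4 NM_176933, chr8:34807610-34819894, Dusp5 NM_001085390, chr19:53529318-53541322, Dusp6 NM_026268, chr10:99263231-99267489, Dusp8 NM_008748, chr7:142079487-142095284, Dusp10 NM_022019, chr1:184034381-184075636, Dusp14 NM_019819, chr11:84048045-84068357, Dusp16 NM_130447, chr6:134715468-134792628 and Zfp36 NM_011756, chr7:28376784-28379228. Genes annotated on the opposite strand by GENCODE overlap 547 of 2473 exon bases of Dusp5 and 125 of 3470 exon bases of Zfp36, and per the study's methods reads were counted by strand.

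In resting WT macrophages, Zfp36 was the most abundant member. Per kilobase of transcript it averaged 176 CPM in WT_Veh, followed by Dusp1 at 40.1, Dusp6 at 8.46 and Dusp4 at 7.80 CPM per kilobase. Dusp5 (2.62), Dusp2 (2.55), Dusp16 (2.19), Dusp10 (1.40) and Dusp8 (0.827 CPM per kilobase) were lower. Dusp14, an atypical small phosphatase, had 1 and 1 counts in the WT_Veh libraries and was not detectable above the floor of 3 counts. After KLA the order per kilobase was Zfp36 (1020.4), Dusp1 (296), Dusp2 (214) and Dusp16 (53.3 CPM per kilobase), with the other members at or below 10.4. After IL4 Dusp4, at 61.1 CPM per kilobase, stood second behind Zfp36 at 219.9. All other levels below are TMM-scaled CPM without division by length, given as the values of both libraries of a group, and each table was scaled on its own. Whether the libraries of compared groups overlap is a description only, as the share of all genes without overlap is not given.

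**Figure D1:**
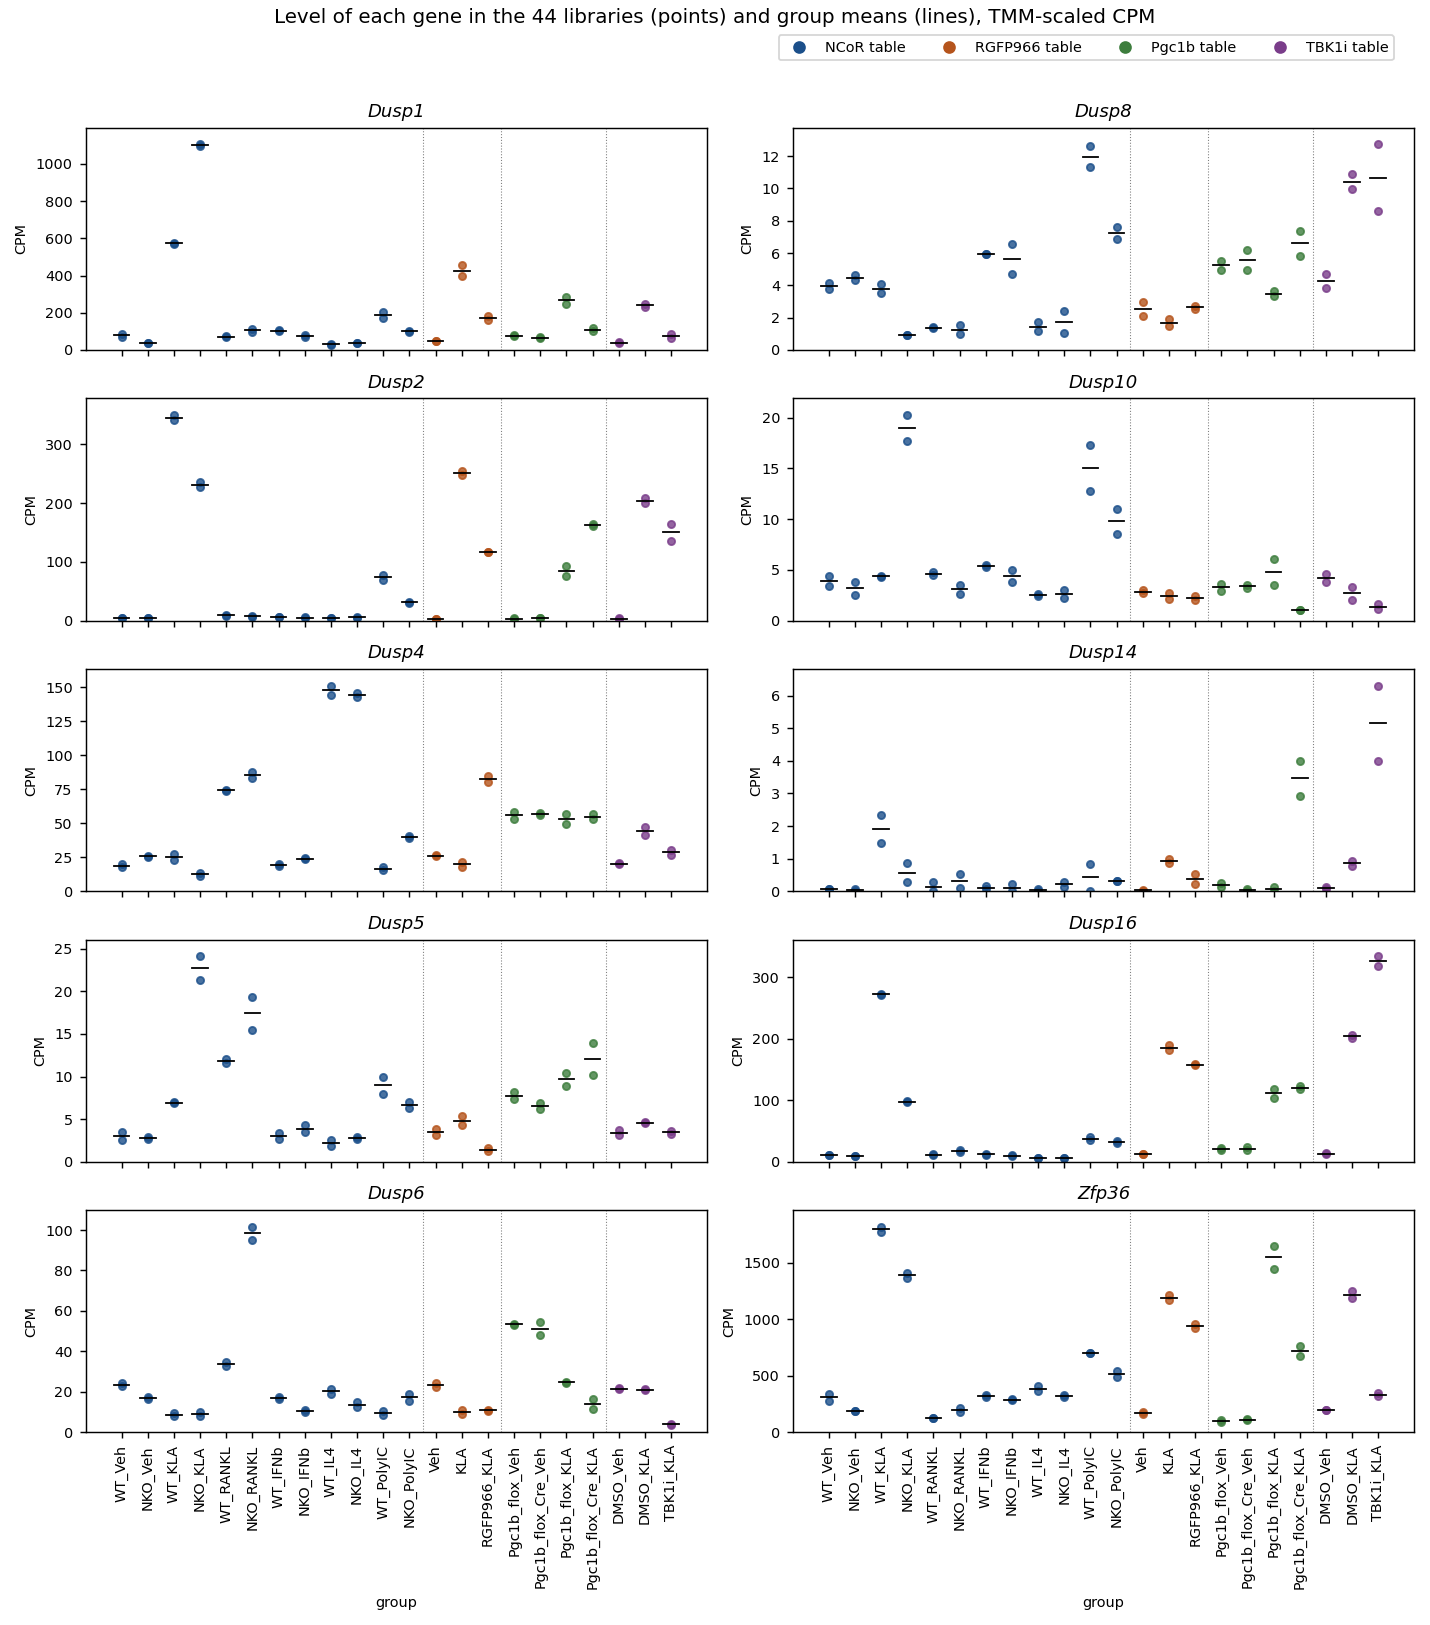
TMM-scaled counts-per-million (CPM, linear axes from 0) of the 10 genes in the 44 libraries, with 1 point per library, a line at each mean of 2 libraries and colours for the 4 tables, which were scaled separately. Dusp1, Dusp2, Dusp16 and Zfp36 stand highest in KLA groups, Dusp4 stands highest in the IL4 groups (143 to 151 CPM) and Dusp6 stands highest in NKO_RANKL (95.1 and 102 CPM).

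To ask how the feedback genes respond to TLR4, WT_KLA was compared with WT_Veh. Of the 10 members, 6 were called higher, Dusp14 with its filter limit among them, and 1 lower. A call needed an edgeR adjusted p under 0.05 together with a change of more than 1.5-fold, whereas 57.8% (25.4% higher and 32.3% lower) of all genes tested met both limits in this comparison. The median log2 fold change of the members was 1.87, against -0.14 over all genes. Dusp2, a nuclear phosphatase of ERK and p38 found mainly in immune cells, rose from 4.13 and 4.10 CPM in WT_Veh to 341 and 350.01 CPM in WT_KLA, a log2 fold change of 6.39 ± 0.10 SE, edgeR adjusted p = 1.32e-52. Dusp16, a phosphatase of JNK and p38, rose from 10.9 and 11.4 to 271 and 273 CPM (log2 fold change 4.60 ± 0.091 SE, edgeR adjusted p = 1.25e-47). Dusp1, the prototype of the family and a nuclear phosphatase of p38 and JNK, went from 70.8 and 84.4 to 577 and 569.9 CPM (log2 fold change 2.89 ± 0.072 SE, edgeR adjusted p = 8.84e-32). Zfp36 went from 277 and 344 to 1819 and 1775 CPM (log2 fold change 2.53 ± 0.093 SE, edgeR adjusted p = 1.41e-14). In each of these 4 genes both KLA libraries lay above both vehicle libraries.

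The remaining members moved less or the other way. Dusp6, the cytoplasmic phosphatase of ERK, fell from 24.5 and 22.8 to 9.66 and 8.0 CPM (log2 fold change -1.42 ± 0.15 SE, edgeR adjusted p = 1.39e-12). Dusp5, a nuclear phosphatase of ERK, rose from 2.54 and 3.49 to 6.88 and 7.0 CPM (log2 fold change 1.20 ± 0.25 SE). Dusp14 went from 1 and 1 counts to 9 and 14 counts and was at least 9.25-fold higher than 3 counts in each vehicle library. Dusp4, a nuclear phosphatase of ERK and JNK, was 27.3 and 23.2 CPM against 17.9 and 19.8 CPM and stayed under the fold threshold (log2 fold change 0.42 ± 0.11 SE). Dusp8 and Dusp10, both phosphatases of JNK and p38, were not called, with log2 fold changes of -0.07 ± 0.29 and 0.16 ± 0.28 (SE).

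The same question was put to 3 other control sets, in which the vehicle and KLA libraries shared a date. With KLA, 6 members were called in the RGFP966 table, beside 60.0% (27.9% higher and 32.2% lower) of all genes. In Pgc1b flox/flox cells 5 were called, beside 48.5% (22.8% higher and 25.7% lower), and 8 were called in the TBK1i table, beside 58.9% (29.6% higher and 29.3% lower). The tables were normalized separately and were not tested against each other. Dusp2 rose in all 3, to 255 and 248, 92.5 and 76.0 and 208 and 199.6 CPM from levels between 2.43 and 3.82 CPM, with log2 fold changes of 6.41, 4.72 and 5.90. The log2 fold changes were 3.93, 2.43 and 3.95 for Dusp16, 3.17, 1.80 and 2.61 for Dusp1 and 2.80, 3.92 and 2.60 for Zfp36, each called. These 4 genes were thus called higher in all 4 control sets. Dusp6 fell in the RGFP966 table (22.4 and 24.5 to 9.17 and 11 CPM) and in Pgc1b flox/flox cells (53.8 and 52.9 to 24.8 and 24.6 CPM). In the TBK1i table it was 21.8 and 21.3 CPM without and 20.8 and 21.4 CPM with KLA, a log2 fold change of -0.03 ± 0.12 SE. Dusp4 was called higher in the TBK1i table alone (20.4 and 20.3 to 41.4 and 47.2 CPM, log2 fold change 1.12 ± 0.099 SE), with log2 fold changes of -0.39 and -0.07 in the other 2. Dusp8 was called higher in the TBK1i table (3.86 and 4.69 to 9.94 and 10.9 CPM) and was not called elsewhere at KLA. Dusp10 was called lower there (log2 fold change -0.65 ± 0.30 SE), but not by DESeq2 (adjusted p = 0.176). Without DMSO_KLA replicate 1 its log2 fold change was -0.30 and without DMSO_Veh replicate 1 -0.49, neither called. Dusp14 was at least 6.27-fold higher with KLA in the RGFP966 table and at least 4.61-fold higher in the TBK1i table, but had only 0 and 1 counts in Pgc1b_flox_KLA.

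Among the ligands on the shared date, poly I:C had both the most members called and the largest share of all genes called. Of the 10, 7 were called higher and 1 lower against WT_Veh, beside 47.2% (22.2% higher and 25.0% lower) of all genes. Dusp2 rose to 69.3 and 77.4 CPM (log2 fold change 4.15 ± 0.12 SE, edgeR adjusted p = 2.69e-39), Dusp16 to 35.3 and 40.1 CPM (1.75 ± 0.11 SE), Dusp1 to 171 and 203 CPM (1.27 ± 0.074 SE) and Zfp36 to 703 and 702 CPM (1.18 ± 0.090 SE). These levels lay below those of WT_KLA in every library, a difference between libraries of different dates that was not tested. Dusp10 rose from 3.44 and 4.38 to 12.7 and 17.3 CPM and Dusp8 from 3.78 and 4.17 to 11.3 and 12.6 CPM, with log2 fold changes of 1.94 ± 0.20 and 1.59 ± 0.22 (SE). Neither was called after KLA in the same table. Dusp6 fell to 10.6 and 8.77 CPM (-1.29 ± 0.14 SE), and Dusp5 rose to 7.97 and 9.97 CPM (1.57 ± 0.22 SE). Dusp14 had 0 and 7 counts and was not called.

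With IFNβ, which poly I:C also induces in macrophages, 0 of the 10 members were called by edgeR, beside 6.47% (4.09% higher and 2.37% lower) of all genes. DESeq2 also called 0. At an unadjusted p below 0.05 there were 5, but the share of all genes at that limit is not given. The 6.47% is no background for that count. Dusp8 (5.96 and 5.95 CPM in WT_IFNb, log2 fold change 0.58 ± 0.22 SE), Dusp6 (16.4 and 17.6 CPM, -0.48 ± 0.11 SE) and Dusp1 (102 and 105 CPM, 0.42 ± 0.074 SE) passed the adjusted p threshold but not the fold threshold. Tested directly, 8 members differed between poly I:C and IFNβ (7 higher and 1 lower with poly I:C, beside 41.9% (20.5% higher and 21.5% lower) of all genes), led by Dusp2 (log2 fold change 3.71 ± 0.11 SE). Dusp6 was the 1 called lower (-0.81 ± 0.14 SE), and Dusp4 was not called (-0.23 ± 0.11 SE).

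With IL4, the cytokine of alternative activation, 1 member was called higher and 4 lower, beside 13.1% (6.63% higher and 6.46% lower) of all genes. Dusp4 rose from 17.9 and 19.8 to 151 and 144 CPM, 7.82-fold, with a log2 fold change of 2.97 ± 0.075 SE, edgeR adjusted p = 1.82e-40. These were its highest levels in any WT group, above both RANKL libraries. Dusp1 fell to 33.2 and 29 CPM (log2 fold change -1.32 ± 0.087 SE, edgeR adjusted p = 2.13e-16) and Dusp16 to 6.21 and 5.46 CPM (-0.94 ± 0.15 SE). Dusp8 fell to 1.73 and 1.15 CPM (-1.46 ± 0.30 SE). Dusp10 was called lower (2.59 and 2.38 against 3.44 and 4.38 CPM, -0.65 ± 0.26 SE, edgeR adjusted p = 0.0471), but not by DESeq2 (adjusted p = 0.0786) and not without WT_Veh replicate 2 (log2 fold change -0.47), WT_IL4 replicate 1 (-0.71) or WT_IL4 replicate 2 (-0.59). Zfp36 was 407 and 367 CPM and Dusp2 4.72 and 4.53 CPM, neither past the fold threshold.

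With RANKL, 3 members were called higher and 2 lower than with vehicle, beside 43.8% (24.1% higher and 19.8% lower) of all genes, in libraries of another date that also held the neutrophil precursor markers given above. RANKL lasted 12 h and vehicle 6 h, and library names call the cells osteoclasts with RANKL and BMDMs with vehicle. Ligand, duration, date and any difference of culture cannot be told apart in these values. Dusp4 rose to 73.9 and 74.6 CPM (log2 fold change 1.97 ± 0.079 SE, edgeR adjusted p = 7.33e-31) and Dusp5 to 11.6 and 12.1 CPM (1.97 ± 0.19 SE, edgeR adjusted p = 4.22e-14). Dusp2 rose to 8.30 and 9.27 CPM (1.09 ± 0.16 SE). Zfp36 fell to 125 and 123 CPM (-1.32 ± 0.094 SE, edgeR adjusted p = 5.34e-10), the lowest level among the WT groups of this table, and Dusp8 fell to 1.37 and 1.39 CPM (-1.52 ± 0.29 SE). Dusp6 was 34.7 and 32.7 CPM and stayed under the fold threshold (0.51 ± 0.098 SE). Dusp1 at 70.6 and 73.3 CPM was not called (-0.11 ± 0.076 SE).

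**Figure D2:**
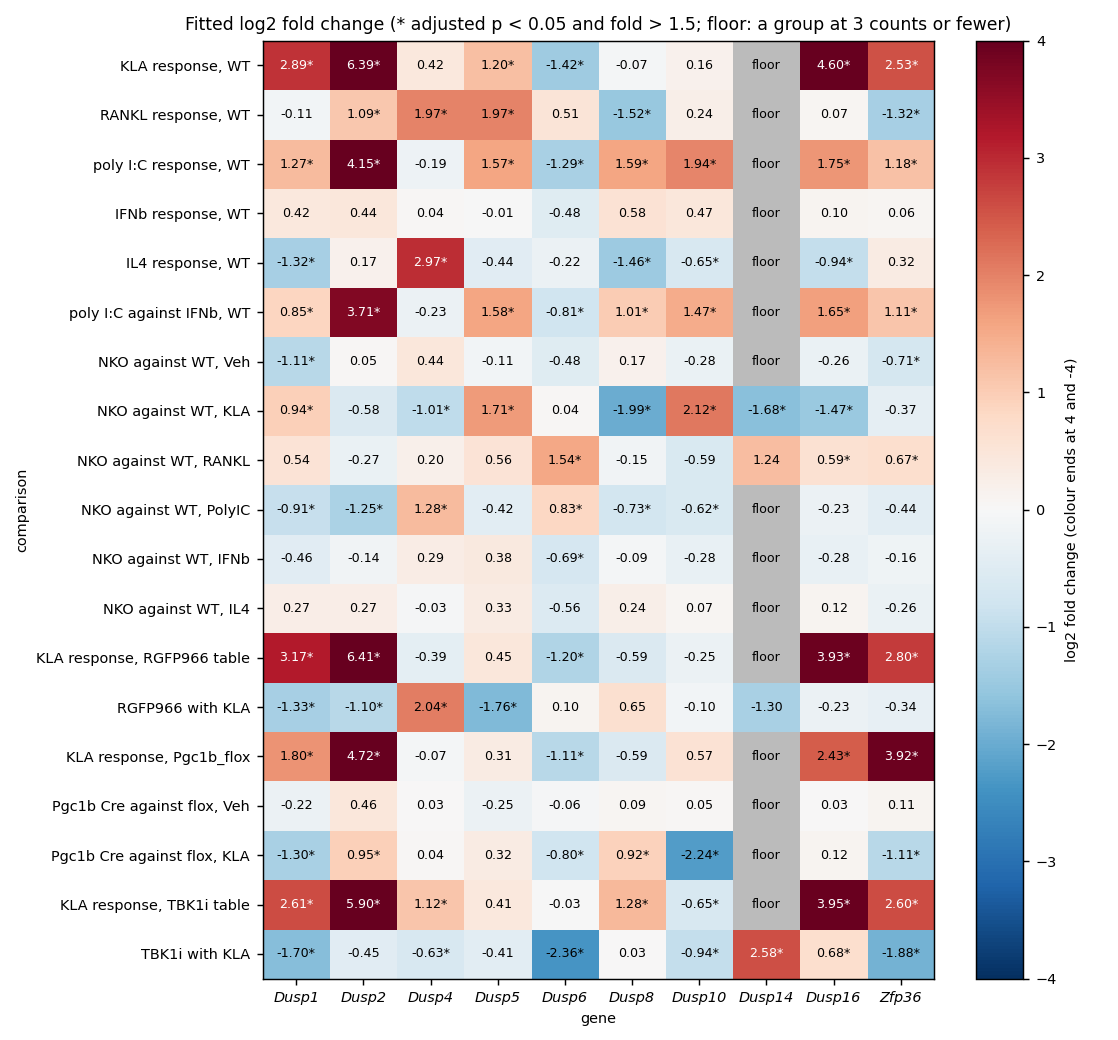
Fitted log2 fold change of each gene (columns) in 19 comparisons (rows), with an asterisk for a call. Colours end at 4 and -4, and grey cells marked floor are comparisons in which a group of Dusp14 had 3 counts or fewer in both libraries. Dusp2 reaches 6.39 with KLA and 4.15 with poly I:C, and Dusp4 reaches 2.97 with IL4.

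Lists of related genes gave the surroundings of these responses in WT cells, where 57.8% (25.4% higher and 32.3% lower) of all genes tested were called with KLA. Of 9 tested messages known as tristetraprolin targets, 9 were called higher after KLA in the same libraries in which Zfp36 rose (median log2 fold change 6.88). The list was chosen with earlier results of these data known, so this count is a description and no measure of tristetraprolin. Tnf was 2074 ± 50.2 against 15.4 ± 1.25 CPM in WT_KLA and WT_Veh, and Ptgs2, which encodes cyclooxygenase 2, was 5238 ± 69.5 against 1.64 ± 1.35 CPM (SD, n = 2). Of 11 other tested DUSP genes, 2 were higher and 6 lower (median -1.27), led by Dusp9 (log2 fold change -3.24), Dusp3 (-2.26), Dusp28 (1.64) and Dusp22 (-1.63). Both relatives of Zfp36 fell, Zfp36l1 (-4.12) and Zfp36l2 (-3.56), whereas Zc3h12c (3.86) and Zc3h12a (3.25), which encode regnase RNases, rose. In this list of RNA decay and ARE-binding proteins 6 of 12 were higher and 4 lower. Of 24 tested MAP kinase cascade genes 6 were higher and 7 lower, a share near that of all genes, with the p38 target kinase Mapkapk2 at 3.52 and the ERK pathway kinase Map3k8 at 2.43. Of 8 genes known as outputs of ERK signaling 3 were higher and 4 lower, and of 6 Sprouty and Spred inhibitors 1 was higher (Spred1, 2.77) and 2 lower, among them Spry2 (-1.19).

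Over all genes tested, 47.2% (22.2% higher and 25.0% lower) were called with poly I:C, 43.8% (24.1% higher and 19.8% lower) with RANKL, 13.1% (6.63% higher and 6.46% lower) with IL4 and 6.47% (4.09% higher and 2.37% lower) with IFNβ, and the list counts here are to be read beside these shares. With poly I:C, 7 of 9 tristetraprolin target messages were called higher and 0 lower (Tnf 923 ± 8.51 against 15.4 ± 1.25 CPM, SD, n = 2), 1 other DUSP gene was higher (Dusp28, log2 fold change 2.56) and 7 were lower, among them Dusp3 (-2.13). In the MAP kinase cascade 7 were higher and 8 lower of 24. With IL4, 2 of 8 ERK output genes were higher and 0 lower, the higher ones being Egr2 (2.60) and Etv5 (1.01), while 1 target message of tristetraprolin was higher (Ier3, 3.46) and 4 were lower, Tnf among them (-1.57). With RANKL, 3 ERK output genes were higher, led by Fosl1 (3.12), and 1 was lower (Egr1, -1.83). Zfp36l1 fell with RANKL as Zfp36 did (-2.58). With IFNβ, 1 of 11 other DUSP genes was called.

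The difference of NKO from WT, called the NKO effect, was then taken treatment by treatment. NKO cells carried LysMCre and WT cells did not, and no group had Cre alone. Loss of NCoR and the Cre allele therefore cannot be told apart. Lyz2, the locus of this Cre, averaged 4602 CPM in NKO_Veh and 9205 CPM in WT_Veh. On the shared date, 2 members were called under vehicle, 6 with poly I:C, 1 with IFNβ and 0 with IL4, beside 6.21% (2.40% higher and 3.80% lower), 5.93% (3.01% higher and 2.92% lower), 3.80% (1.86% higher and 1.94% lower) and 4.24% (1.90% higher and 2.33% lower) of all genes. Under vehicle, Dusp1 fell from 70.8 and 84.4 CPM in WT to 35.2 and 36.6 CPM in NKO (log2 fold change -1.11 ± 0.082 SE, edgeR adjusted p = 5.04e-14). Zfp36 fell from 277 and 344 to 191 and 189 CPM (log2 fold change -0.71 ± 0.092 SE, edgeR adjusted p = 1.50e-05), and without WT_Veh replicate 2 its log2 fold change of -0.54 was under the fold threshold. Dusp6 (16.6 and 17.3 CPM in NKO_Veh) and Dusp4 (25.8 and 25.5 CPM) were under the fold threshold, at -0.48 ± 0.11 and 0.44 ± 0.090 (SE). Marker sums of other cells also differed between the genotypes under vehicle. The osteoclast markers summed to 144 to 149 CPM in NKO_Veh against 53.8 to 65.7 CPM in WT_Veh, with Calcr at 0 in both, and the fibroblast markers to 64.9 to 65.9 against 87.8 to 96.4 CPM. Their part in the NKO effects was not tested.

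With poly I:C, 2 members were higher and 4 lower in NKO. The osteoclast markers summed to 156 to 169 CPM in NKO_PolyIC against 61.3 to 61.8 CPM in WT_PolyIC, with Calcr at 0 in both, and the fibroblast markers to 61.1 to 70.0 against 113 to 130 CPM, and their part was not tested. Dusp2 was 29.3 and 32.1 CPM in NKO against 69.3 and 77.4 CPM in WT (log2 fold change -1.25 ± 0.089 SE, edgeR adjusted p = 7.24e-18), and Dusp1 was 101 and 98.5 against 171 and 203 CPM (-0.91 ± 0.075 SE, edgeR adjusted p = 1.20e-12). Dusp4 went the other way, with 41.0 and 39.4 CPM in NKO against 15.4 and 17.8 CPM (1.28 ± 0.10 SE, edgeR adjusted p = 1.92e-15), as did Dusp6 with 18.9 and 15.6 against 10.6 and 8.77 CPM (0.83 ± 0.15 SE). Dusp8 (7.60 and 6.84 against 11.3 and 12.6 CPM, -0.73 ± 0.21 SE) and Dusp10 (8.55 and 11 against 12.7 and 17.3 CPM, -0.62 ± 0.18 SE) were called lower. The call of Dusp8 was lost without NKO_PolyIC replicate 2 (log2 fold change -0.65) or WT_PolyIC replicate 2 (-0.65). The call of Dusp10 was lost without NKO_PolyIC replicate 1 (-0.45) or WT_PolyIC replicate 2 (-0.38). Dusp16 at 30.3 and 33.9 CPM and Zfp36 at 491 and 546 CPM in NKO were not called. An interaction term tested whether the NKO effect at poly I:C differed from that under vehicle, and called 3 members beside 3.24% (2.13% higher and 1.10% lower) of all genes. They were Dusp2 (-1.30 ± 0.21 SE, edgeR adjusted p = 6.89e-06), Dusp4 (0.84 ± 0.14 SE, edgeR adjusted p = 1.50e-05) and Dusp6 (1.31 ± 0.18 SE, edgeR adjusted p = 4.54e-07). For Dusp1 the difference between the 2 NKO effects was 0.20 ± 0.11 (SE) and was not called.

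With IFNβ, where the osteoclast markers summed to 141 to 146 CPM in NKO against 56.1 to 60.4 CPM in WT and the fibroblast markers to 63.7 to 68.2 against 94.9 to 96.5 CPM, Dusp6 was the 1 member called (10.1 and 11 CPM in NKO against 16.4 and 17.6 CPM in WT, log2 fold change -0.69 ± 0.13 SE, edgeR adjusted p = 2.78e-05). With IL4, edgeR and DESeq2 called 0 members. An unadjusted p below 0.05 was reached by 3, a count without a share of all genes beside it. Dusp4 was 143 and 146 CPM in NKO_IL4 and 151 and 144 CPM in WT_IL4, with overlapping libraries and a log2 fold change of -0.03 ± 0.059 (SE). Dusp6 was 12.6 and 14.9 against 21.4 and 19.2 CPM, under the fold threshold at -0.56 ± 0.12 (SE).

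At RANKL, where both genotypes shared a date, 3 members were called higher in NKO and 0 lower, beside 13.2% (6.21% higher and 6.99% lower) of all genes. Dusp6 was 95.1 and 102 CPM in NKO against 34.7 and 32.7 CPM in WT, 2.91-fold higher (log2 fold change 1.54 ± 0.088 SE, edgeR adjusted p = 4.08e-22), the highest Dusp6 level of the 22 groups. Zfp36 was 177 and 218 against 125 and 123 CPM (0.67 ± 0.097 SE, edgeR adjusted p = 2.51e-05) and Dusp16 was 19.5 and 15.8 against 12.6 and 10.9 CPM (0.59 ± 0.12 SE, edgeR adjusted p = 5.68e-05). Both lay near the fold threshold. Without NKO_RANKL replicate 2 Zfp36 was at 0.51, and Dusp16 was at 0.43 without NKO_RANKL replicate 1 and at 0.50 without WT_RANKL replicate 2, all under it. Dusp1 (112 and 97.7 against 70.6 and 73.3 CPM, 0.54 ± 0.077 SE) and Dusp5 (19.3 and 15.5 against 11.6 and 12.1 CPM, 0.56 ± 0.15 SE) stayed under the fold threshold. The neutrophil and precursor markers summed to 1166 and 1183 CPM in NKO_RANKL and to 831 and 928 CPM in WT_RANKL, with none of the 6 at 3 counts or fewer, and the fibroblast markers to 229 and 323 against 193 and 219 CPM. Their part in the difference was not tested. For the interaction with vehicle, ligand, duration (12 h against 6 h), date and any difference of culture cannot be told apart. The interaction with vehicle called 4 members beside 14.2% (7.26% higher and 6.97% lower) of all genes, all with a more positive NKO effect at RANKL: Dusp6 (2.02 ± 0.14 SE, edgeR adjusted p = 2.35e-18), Dusp1 (1.65 ± 0.11 SE, edgeR adjusted p = 5.35e-15), Zfp36 (1.38 ± 0.13 SE, edgeR adjusted p = 3.50e-07) and Dusp16 (0.86 ± 0.18 SE, edgeR adjusted p = 0.000105).

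Among the related lists at RANKL, where 13.2% (6.21% higher and 6.99% lower) of all genes were called, 4 of 8 ERK output genes were higher in NKO and 0 lower, namely Etv5 (log2 fold change 1.19), Egr1 (1.12), Phlda1 (1.06) and Egr2 (0.65). Of 9 tristetraprolin target messages 6 were higher and 0 lower, led by Cxcl2 (2.14) and Il10 (1.47). Of 6 Sprouty and Spred genes 2 were higher, Spry2 among them (0.83), and of 24 MAP kinase cascade genes 0 were higher and 1 lower. At poly I:C, where 5.93% (3.01% higher and 2.92% lower) of all genes were called, 1 ERK output gene was higher in NKO (Egr2, 1.97) and 2 were lower (Ier2, -0.85, and Egr1, -0.64), while 1 of 9 tristetraprolin targets was higher and 4 were lower, led by Ccl3 (-1.22) and Ptgs2 (-1.12). Under vehicle, where 6.21% (2.40% higher and 3.80% lower) of all genes were called, 3 of 9 tristetraprolin targets were lower and 0 higher.

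**Figure D3:**
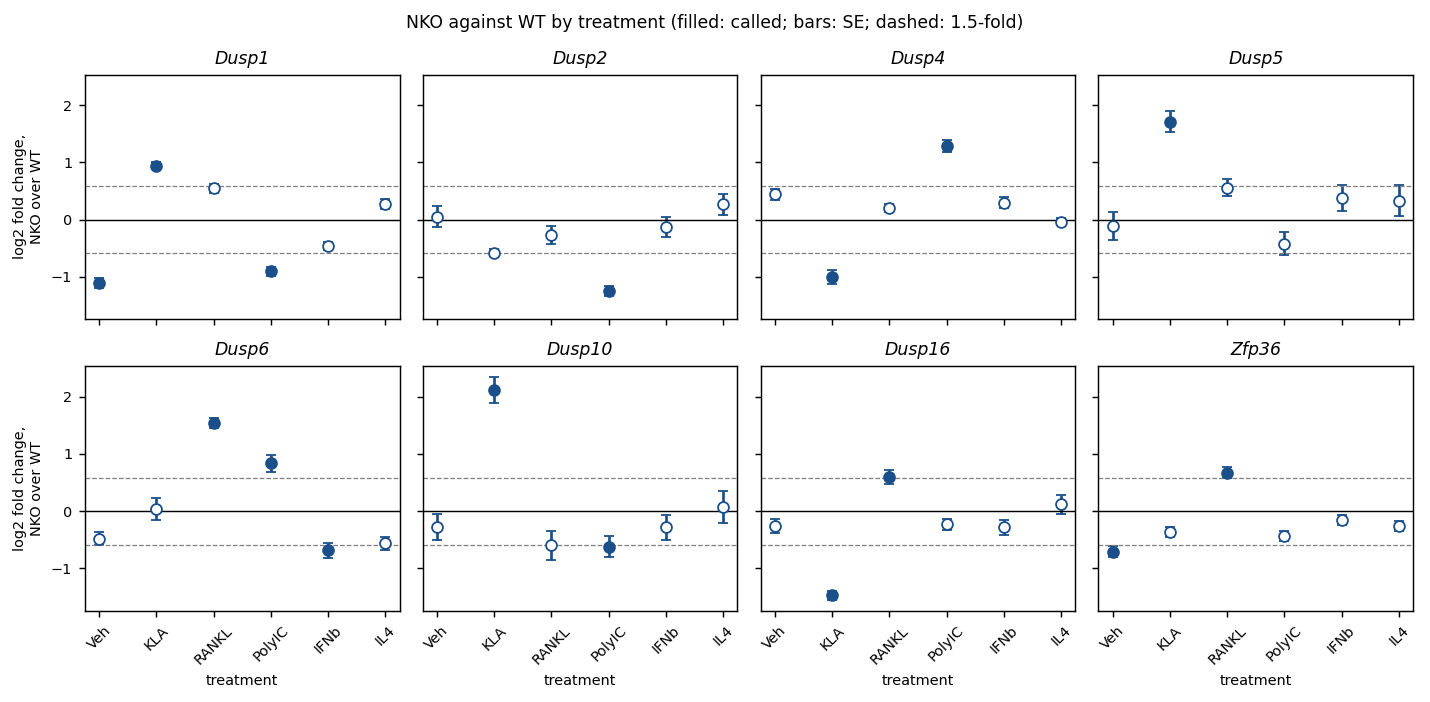
Log2 fold change of NKO over WT (y axis) for 8 genes under 6 treatments (x axis), with SE bars, filled points for calls, open points for the rest and dashed lines at a 1.5-fold change. Dusp1 lies at -1.11 under vehicle and 0.94 at KLA, Dusp6 lies at 1.54 at RANKL and -0.69 at IFNβ, and the genotypes at KLA came from different dates and sexes.

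At KLA, where genotype, date and sex were confounded, 3 members were called higher and 4 lower in NKO_KLA than in WT_KLA, beside 40.0% (21% higher and 19% lower) of all genes. Dusp1 was 1106 and 1096 CPM in NKO_KLA against 577 and 569.9 CPM in WT_KLA (log2 fold change 0.94 ± 0.064 SE, edgeR adjusted p = 2.40e-16), Dusp10 was 20.3 and 17.7 against 4.42 and 4.33 CPM (2.12 ± 0.22 SE, edgeR adjusted p = 1.47e-12) and Dusp5 was 24.1 and 21.3 against 6.88 and 7.0 CPM (1.71 ± 0.19 SE, edgeR adjusted p = 4.52e-12). Dusp16 was 98.7 and 97.0 against 271 and 273 CPM (-1.47 ± 0.071 SE, edgeR adjusted p = 1.06e-26), Dusp4 was 13.5 and 11.5 against 27.3 and 23.2 CPM (-1.01 ± 0.12 SE, edgeR adjusted p = 1.88e-10) and Dusp8 was 0.945 and 0.952 against 4.09 and 3.50 CPM (-1.99 ± 0.40 SE, edgeR adjusted p = 1.89e-05). Dusp14, with 10 and 3 counts in NKO_KLA and 9 and 14 counts in WT_KLA, was called lower by edgeR (-1.68 ± 0.68 SE) but not by DESeq2 (adjusted p = 0.105), and the call was lost without NKO_KLA replicate 2 (-1.13) or WT_KLA replicate 2 (-1.32). Dusp2 (227 and 235 against 341 and 350.01 CPM, -0.58 ± 0.062 SE) and Zfp36 (1367 and 1410.02 against 1819 and 1775 CPM, -0.37 ± 0.087 SE) were lower in both NKO libraries and under the fold threshold. Dusp6 was not called (0.04 ± 0.18 SE).

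All KLA libraries of the 4 tables were then fitted jointly on 11267 genes, to set NKO_KLA against 3 more controls. None of these libraries shared its date. The controls were NCoR flox/flox, wild type or Pgc1b flox/flox cells, all without Cre. Called over all genes were 42.2% against WT_KLA, 45.9% against KLA of the RGFP966 table, 36.3% against Pgc1b_flox_KLA, libraries that also had Y-linked transcripts, and 40.9% against DMSO_KLA. Dusp1, Dusp5 and Dusp10 were called higher against all 4 controls, with log2 fold changes in that order of controls of 0.92, 1.07, 2.03 and 2.16 for Dusp1, 1.69, 1.95, 1.22 and 2.27 for Dusp5 and 2.10, 2.69, 1.96 and 2.79 for Dusp10. Dusp4 and Dusp8 were called lower against all 4, from -2.10 to -0.97 and from -3.48 to -1.11. Dusp16 was called lower against 3 controls (-1.49, -1.22 and -1.10) but not against Pgc1b_flox_KLA (-0.19). Dusp2 turned with the control, being called lower against WT_KLA (-0.60 in the joint fit) and higher against Pgc1b_flox_KLA (1.44). Dusp6 was called lower against Pgc1b_flox_KLA (-1.45) and DMSO_KLA (-1.26) but not against WT_KLA (0.02) or KLA (-0.46). Zfp36 was not called against any of the 4, with log2 fold changes from -0.39 to 0.15. The 4 comparisons share the NKO_KLA libraries and are not independent.

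**Figure D4:**
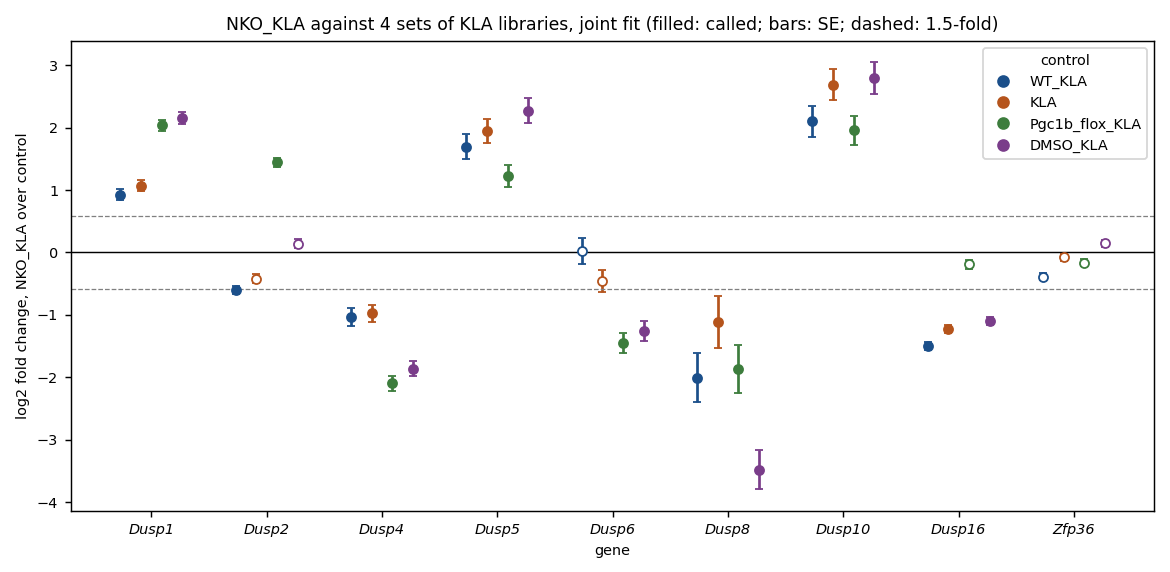
Log2 fold change of NKO_KLA over each of 4 sets of KLA libraries (colours) for 9 genes, from 1 joint fit, with SE bars, filled points for calls and dashed lines at a 1.5-fold change. Dusp14, near the floor of 3 counts, is not drawn. All 4 points of Dusp1, Dusp5 and Dusp10 lie above 0 and all 4 of Dusp4 and Dusp8 below, while Dusp2 spans -0.60 to 1.44.

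The interaction of NKO with KLA called 7 members beside 36.9% (19.9% higher and 17% lower) of all genes, under the same confounding. The largest terms were 2.39 ± 0.33 in Dusp10, -2.16 ± 0.46 in Dusp8 and 2.05 ± 0.10 in Dusp1 (log2 scale, SE). The list counts that follow are of NKO_KLA against WT_KLA, where 40.0% (21% higher and 19% lower) of all genes were called. Of 9 tristetraprolin target messages, 8 were called lower and 1 higher in NKO_KLA than in WT_KLA (median log2 fold change -2.18, against 0.07 over all genes), led by Cxcl2 (-3.99), Cxcl1 (-3.30), Il6 (-2.64) and Il1b (-2.63). Of the RNA decay list 3 were higher, Zfp36l2 among them (1.44), and 4 lower. Of 8 ERK output genes 2 were higher and 2 lower, with Ccnd1 at 2.29 and Egr2 at 1.05.

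To describe the members under HDAC3 inhibition, KLA with RGFP966 was compared with KLA alone. No group had RGFP966 without KLA. A change of the KLA response and an effect of RGFP966 in resting cells therefore cannot be told apart. With RGFP966, 1 member was called higher and 3 lower, beside 25.4% (15.8% higher and 9.54% lower) of all genes. Dusp4 rose from 18.2 and 21.7 CPM to 84.8 and 80.5 CPM (log2 fold change 2.04 ± 0.093 SE, edgeR adjusted p = 5.28e-33). Its vehicle level was 26.1 and 26.4 CPM, so it stood above both vehicle and KLA libraries. Dusp1 fell from 456 and 397 to 159 and 179.9 CPM (-1.33 ± 0.063 SE, edgeR adjusted p = 2.00e-31) and Dusp2 from 255 and 248 to 117 and 117 CPM (-1.10 ± 0.063 SE, edgeR adjusted p = 1.15e-26). Both stayed above their vehicle levels, which were 48.2 and 46.5 CPM for Dusp1 and 2.62 and 3.29 CPM for Dusp2. Dusp5 fell from 5.35 and 4.28 to 1.25 and 1.57 CPM (-1.76 ± 0.31 SE). Zfp36 (961 and 925 against 1213 and 1168 CPM, -0.34 ± 0.055 SE) and Dusp16 (158 and 157 against 181 and 189.6 CPM, -0.23 ± 0.063 SE) were lower in both libraries but under the fold threshold. Dusp6 (0.10 ± 0.15 SE), Dusp8 (0.65 ± 0.35 SE), Dusp10 (-0.10 ± 0.33 SE) and Dusp14 (7 and 3 against 9 and 12 counts) were not called. All 4 calls were also made when RGFP966_KLA replicate 2, dated 14 days later than the other libraries of this table, was left out. Of 7 ERK output genes 1 was higher (Egr2, 1.39) and 3 were lower, among them Egr1 (-1.35) and Ier2 (-1.16), and of 11 tristetraprolin targets 3 were higher, led by Cxcl1 (3.24), and 1 lower. In the MAP kinase cascade 3 of 23 were higher and 1 lower, and of 11 other DUSP genes 3 were higher, Dusp23 among them (0.71).

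In Pgc1b flox/flox cells, 0 members were called by edgeR and 0 by DESeq2 with LysMCre under vehicle, beside 0.303% (0.164% higher and 0.139% lower) of all genes. An unadjusted p below 0.05 was reached by 2, for which the share of all genes is not given. The counts do not show whether the floxed exon was lost, so these groups are named by their genotype. The study separately ran an immunoblot of PGC1β protein in BMDMs of both genotypes. No group had Cre alone, so loss of Pgc1b and the Cre allele cannot be told apart. Lyz2 averaged 4407 CPM in Pgc1b_flox_Cre_Veh and 8212 CPM in Pgc1b_flox_Veh. After KLA, 3 members were called higher and 4 lower with Cre, beside 26.1% (13.2% higher and 12.9% lower) of all genes. Zfp36 was 762 and 673 CPM with Cre against 1648 and 1447 CPM without (log2 fold change -1.11 ± 0.069 SE, edgeR adjusted p = 8.23e-16), and Dusp1 was 116 and 100.2 against 286 and 248 CPM (-1.30 ± 0.083 SE, edgeR adjusted p = 1.53e-15). Dusp2 was higher with Cre, at 165 and 161 against 92.5 and 76.0 CPM (0.95 ± 0.100 SE, edgeR adjusted p = 5.32e-10), while Dusp16 was not called (118 and 123 against 104 and 119 CPM, 0.12 ± 0.100 SE). The 4 genes induced by KLA in every control set took 3 courses here, with 2 lower, 1 higher and 1 not called.

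Dusp10 was 1.03 and 1.00 CPM with Cre against 6.03 and 3.52 CPM without (-2.24 ± 0.44 SE). Dusp6 was 16.6 and 11.6 against 24.8 and 24.6 CPM (-0.80 ± 0.15 SE), under the fold threshold without Cre replicate 2 at KLA (-0.57). Dusp8 was 7.37 and 5.82 against 3.33 and 3.64 CPM (0.92 ± 0.31 SE), a call lost without Pgc1b_flox_Cre_KLA replicate 1 (log2 fold change 0.77) or Pgc1b_flox_KLA replicate 1 (0.88). Dusp14 had 43 and 29 counts with Cre and 0 and 1 counts without, at least 10.0-fold higher than 3 counts in each control library. It passed the filter through Pgc1b_flox_Cre_KLA, so its calls here and in the interaction were not independent of the filter. Dusp4 stayed between 49.5 and 58.5 CPM in all 8 libraries of this table, and Dusp5 was 13.9 and 10.2 against 10.4 and 8.91 CPM and not called (0.32 ± 0.22 SE). The interaction of Cre with KLA called 5 members beside 22.8% (11.6% higher and 11.2% lower) of all genes. They were Zfp36 (-1.22 ± 0.10 SE, edgeR adjusted p = 6.03e-12), Dusp1 (-1.08 ± 0.12 SE, edgeR adjusted p = 3.47e-09), Dusp6 (-0.74 ± 0.19 SE), Dusp10 (-2.29 ± 0.57 SE) and Dusp14, whose other 3 groups were at 3 counts or fewer. The term of Dusp6 was under the fold threshold without Pgc1b_flox_Cre_KLA replicate 2 (-0.51). The list counts that follow are of Cre against no Cre at KLA, where 26.1% (13.2% higher and 12.9% lower) of all genes were called. Of 11 tristetraprolin targets 5 were higher with Cre at KLA and 4 lower, with Csf2 at 2.91, Il23a at 2.52, Cxcl1 at 2.14 and Il6 at -1.55. Of 11 other DUSP genes 3 were higher, Dusp9 (1.61) and Dusp3 (1.33) among them, and 1 was lower (Dusp28, -1.65). Of 23 MAP kinase cascade genes 3 were higher and 3 lower, with Map3k5 at 2.39 and Map2k1 at -0.81.

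**Figure D5:**
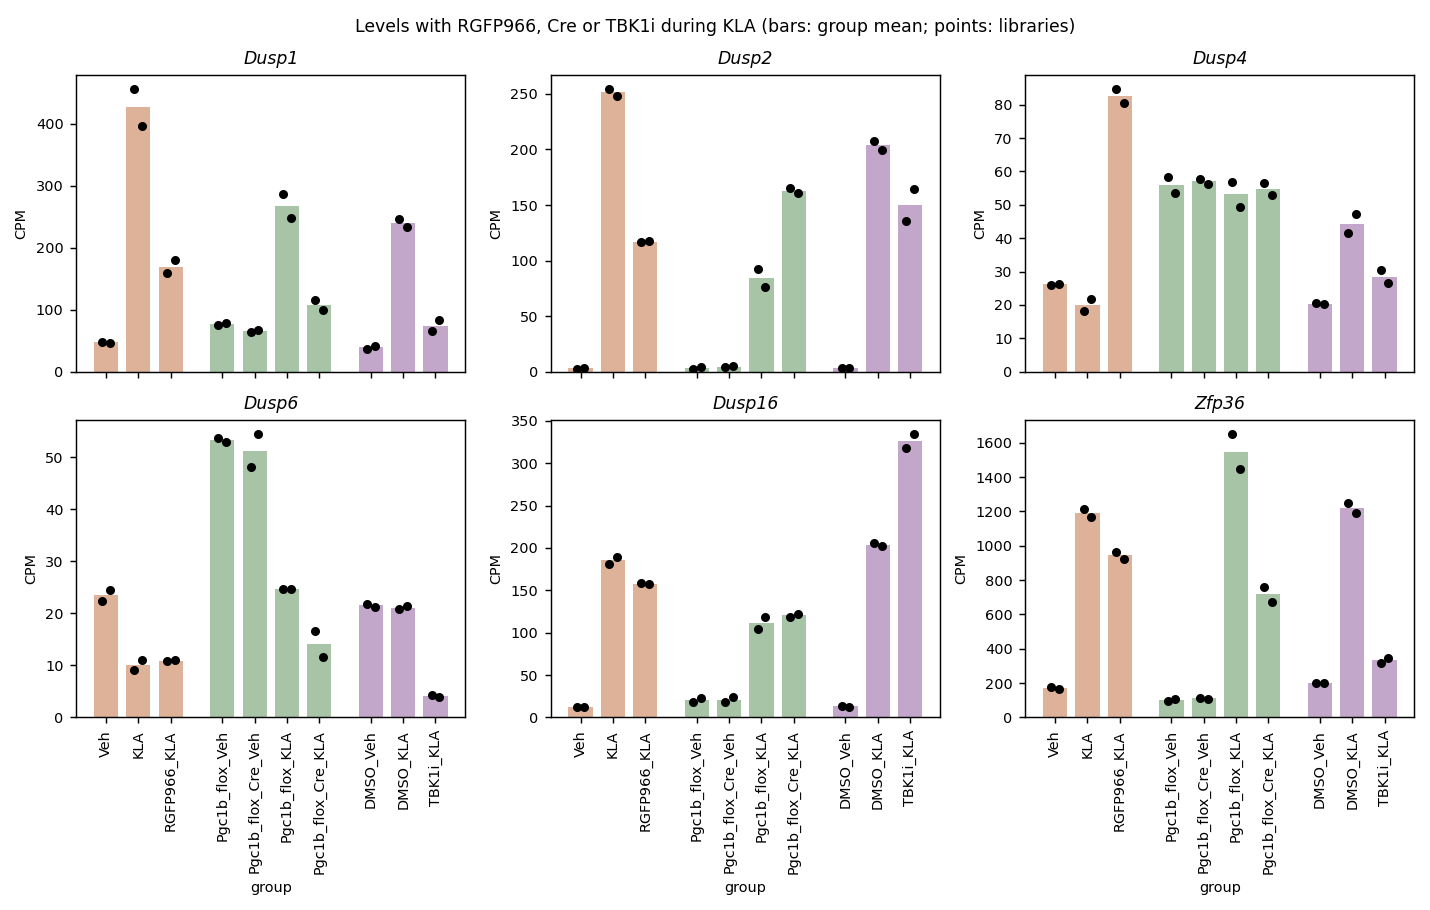
CPM of 6 genes (linear axes from 0) in the vehicle, KLA and perturbed KLA groups of 3 tables (colours), with bars at the mean of 2 libraries and points for the libraries. Zfp36 falls to 318 and 347 CPM with TBK1i while Dusp16 rises to 318 and 334 CPM, and Dusp4 rises to 84.8 and 80.5 CPM with RGFP966.

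With TBK1i during KLA, 2 members were called higher and 5 lower than with DMSO and KLA, beside 33.3% (15% higher and 18.3% lower) of all genes. No group had TBK1i without KLA, so an effect of TBK1i in resting cells cannot be told apart here. Zfp36 fell from 1248 and 1189 to 318 and 347 CPM (log2 fold change -1.88 ± 0.040 SE), where DMSO_Veh stood at 199 and 202 CPM. Dusp1 fell from 246 and 233 to 65.6 and 83.1 CPM (-1.70 ± 0.059 SE), with DMSO_Veh at 37.1 and 41.2 CPM. Both genes were closer to their vehicle than to their KLA level. Dusp2 was lower in both libraries (136 and 164 against 208 and 199.6 CPM, -0.45 ± 0.054 SE) but under the fold threshold. Dusp16 rose above its KLA level, from 205 and 202 to 318 and 334 CPM (0.68 ± 0.048 SE, edgeR adjusted p = 2.09e-44).

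Dusp6, which was not called for KLA alone in this table, fell from 20.8 and 21.4 to 4.31 and 3.83 CPM (-2.36 ± 0.18 SE, edgeR adjusted p = 5.65e-38), its lowest level in the 22 groups. Dusp4 fell from 41.4 and 47.2 to 30.4 and 26.6 CPM (-0.63 ± 0.10 SE), under the fold threshold without DMSO_KLA replicate 2 (-0.54) or TBK1i_KLA replicate 2 (-0.54). Dusp10 fell from 1.99 and 3.35 to 1.60 and 1.13 CPM (-0.94 ± 0.40 SE), a call that DESeq2 did not make (adjusted p = 0.136) and that was lost without DMSO_KLA replicate 2 (-0.52) or TBK1i_KLA replicate 2 (-0.73). Dusp14 had 40 and 56 counts with TBK1i and 7 and 8 counts without (2.58 ± 0.42 SE), and Dusp5 (-0.41 ± 0.29 SE) and Dusp8 (0.03 ± 0.19 SE) were not called. The call of Dusp14 was not independent of the filter, which it passed through TBK1i_KLA. The list counts for TBK1i stand beside 33.3% (15% higher and 18.3% lower) of all genes. Of 8 ERK output genes 1 was higher and 3 were lower, namely Ccnd1 (-3.32), Egr1 (-1.85) and Ier2 (-1.01). Of 5 Sprouty and Spred genes 1 was higher (Spry1, 0.73) and 2 were lower (Spry2, -1.69, and Spred1, -0.95). Of 11 tristetraprolin targets 4 were higher, among them Il23a (4.88) and Csf2 (2.26), and 4 were lower, among them Ccl3 (-3.07) and Il10 (-2.54). In the MAP kinase cascade 9 of 23 were higher and 4 lower, led by Map3k5 (2.63), and of 11 other DUSP genes 1 was higher and 1 lower (Dusp28, -3.03).

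Finally, the patterns of the members were compared over the 12 group means of the NCoR table, on the log2 CPM scale, as a description over groups that include the confounded KLA libraries. Dusp2 and Dusp16 were most alike (Pearson r = 0.96), followed by Dusp1 with Dusp16 (r = 0.92) and Dusp1 with Dusp2 (r = 0.91). Zfp36 had r = 0.88 with Dusp2, whereas Dusp6 had r = -0.68 with Zfp36 and Dusp4 had r = -0.62 with Dusp1. Among the 9794 genes averaging at least 5 CPM in that table, those most like Dusp2 were Gfpt1 (r = 0.99), Dst (r = 0.99), Sec23b (r = 0.98), and those most like Dusp16 were Cop1 (r = 0.99), Myadm (r = 0.99), Uba6 (r = 0.98). The genes most like Dusp1 were Emd (r = 0.98), Maip1 (r = 0.96), Il17ra (r = 0.96), and those most like Zfp36 were Rab35 (r = 0.97), Eloa (r = 0.97), Rac1 (r = 0.97). Dusp10 was nearest to Qpct (r = 0.96), Tmed1 (r = 0.95), Fbxo42 (r = 0.95). Lower values were reached for Dusp4, nearest to Ceacam19 (r = 0.92), Prps1 (r = 0.91), Lrpprc (r = 0.90), and for Dusp6, nearest to Mcfd2 (r = 0.93), Gstp1 (r = 0.91), Jtb (r = 0.91). Dusp8 and Dusp14 averaged under 5 CPM and were left out.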

How the data were processed

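RNA-seq was measured in 44 libraries. Per the labels and the study's methods, the authors aligned reads to mm10 with STAR and counted strand-specific reads within exons with HOMER. The deposited values are raw tag counts per gene, 1 RefSeq transcript each, in 4 tables. Nothing was pooled, and tool versions are not given in the sources used here.

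Groups were taken from the sample labels. Each table was normalized on its own (TMM), filtered on low counts (filterByExpr) and fitted over all its groups with edgeR 4.0.16 in R 4.3.3 (limma 3.58.1), using the robust quasi-likelihood test. Between 12196 and 13407 genes were tested. P-values were adjusted by Benjamini-Hochberg over all genes tested in 4 tables and 23 comparisons (19 between 2 groups and 4 interactions), each comparison on its own. A call required both an adjusted p under 0.05 and a change of more than 1.5-fold. The SE was derived from the F statistic. The floor is 3 counts in a library, which covers counting error only. Where a group lay at or under it, a fold was computed against the floor. Since tables were scaled separately, NKO_KLA was compared with KLA libraries of other tables only in a joint fit of all KLA libraries, on 11267 genes.

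The deposited counts summed to 8323493 to 16783155 per library, and the common biological coefficient of variation was 0.0310 to 0.0665. On data simulated for KLA against vehicle in the NCoR table (12892 genes), the test recovered 98 of 100 genes changed 2-fold and 100 of 100 changed 4-fold. The changed genes all averaged at least 5 CPM, all other genes were left unchanged, and no effect of date was simulated. In the real comparison 57.8% of genes were called. The recovery therefore does not cover members at lower levels or differences of date. In all 22 groups the 2 libraries differed beyond sampling noise. Same-numbered libraries did not deviate together and were not taken as pairs.

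The members and the 6 pathway lists were chosen with earlier results of these data known. All 10 members are named, and of each list up to 4 called genes with the largest changes and at least 5 CPM. Marker sums are descriptions. Alternatives were DESeq2 1.42.0, DESeq2 size factors, no filter, a filter on a mean of 5 CPM, a replicate block, leaving out each library, the compared groups alone, the adjusted p alone and other controls of NKO_KLA. A fit of the 16 libraries of 1 date was added after seeing the data. Promoters came from RefSeq (GRCm38.p6) and matched 9 of 10 members. Figures were drawn with matplotlib 3.10.9.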

Additional observations from a re-analysis of the deposited data

Results flagged for a closer look

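An interaction term tested whether the effect of a genotype on a member differed between KLA, RANKL or poly I:C and vehicle. It was called for the members below, given as differences between 2 log2 fold changes with SE, and positive where the effect of genotype was more positive with the stimulus. The values repeat terms of the report where these were printed there.

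Between RANKL and vehicle the NKO effect differed by 1.65 ± 0.11 in Dusp1, 2.02 ± 0.14 in Dusp6, 0.86 ± 0.18 in Dusp16 and 1.38 ± 0.13 in Zfp36. Dusp1 and Zfp36 lay at -1.11 and -0.71 under vehicle and at 0.54 and 0.67 with RANKL, so both changed sign. The 2 treatments came from different dates, each shared by both genotypes, and lasted 12 h with RANKL and 6 h with vehicle. Library names call the RANKL cells osteoclasts. Ligand, duration, date and any difference of culture cannot be told apart in these 4 terms.

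Between poly I:C and vehicle, on 1 date, it differed by -1.30 ± 0.21 in Dusp2, 0.84 ± 0.14 in Dusp4 and 1.31 ± 0.18 in Dusp6. The NKO effect on Dusp6 was -0.48 under vehicle and 0.83 with poly I:C.

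Between KLA and vehicle it differed by 2.05 ± 0.10 in Dusp1, -0.63 ± 0.20 in Dusp2, -1.45 ± 0.15 in Dusp4, 1.82 ± 0.31 in Dusp5, -2.16 ± 0.46 in Dusp8, 2.39 ± 0.33 in Dusp10 and -1.21 ± 0.15 in Dusp16. Without NKO_Veh replicate 1 the term of Dusp2 was -0.43 and not called. Genotype, date and sex cannot be told apart in these 7 terms.

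In Pgc1b flox/flox cells the effect of Cre differed between KLA and vehicle by -1.08 ± 0.12 in Dusp1, -0.74 ± 0.19 in Dusp6, -2.29 ± 0.57 in Dusp10, 7.91 ± 1.97 in Dusp14 and -1.22 ± 0.10 in Zfp36. The value for Dusp14 rests on groups at 3 counts or fewer, depends on the prior count of 2 and is no bound. The groups of 2 libraries were too small to look for single libraries that stand apart.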

How the results depend on the processing

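Of 2696 alternative values of the 230 member fold changes, 2544 kept their direction and their side of the threshold, 36 lost a call, 46 gained one, 4 changed sign with at least 1 of both values called, and in 66 the sign differed with neither value called. DESeq2 made 104 of the 108 calls, the alternative size factors 107, the fit without a filter 107, and the filter on a mean of 5 CPM 89 of 89 that could be tested. The 4 changes of sign came from other controls of NKO_KLA, and of these Dusp14 alone was called against WT_KLA: Dusp2 (1.44), Dusp6 (-1.45) and Dusp14 (3.08, against a control at the floor) against Pgc1b_flox_KLA, and Dusp6 (-1.26) against DMSO_KLA. The cause was not tested. On the adjusted p alone, the members called rose from 0 to 3 with IFNβ, and for NKO against WT from 2 to 4 under vehicle, from 3 to 6 with RANKL, from 1 to 3 with IFNβ and from 0 to 2 with IL4, since this rule drops the fold threshold. Calls over all genes rose by this rule too, as given below. Its shares of all genes for the NKO comparisons are not given, so these rises are no result about the members. Without a filter 1 member (Dusp8) was called with IFNβ, and with the filter on a mean of 5 CPM the Pgc1b interaction kept 3, as Dusp10 and Dusp14 were not tested. Leaving out 1 library, NKO against WT gave 1 to 2 members under vehicle (1 without WT_Veh replicate 2) and 0 to 1 with IL4 (1 without NKO_IL4 replicate 2 or WT_IL4 replicate 2). With the replicate number as a block the counts of members called moved in 2 comparisons. Dusp8 was added to the poly I:C interaction (-0.89, edgeR adjusted p = 0.0419), and Dusp10 was lost for KLA in the TBK1i table (-0.65, edgeR adjusted p = 0.0502). Correlations of same-numbered libraries over the NCoR table ran from -0.06 to 0.06, so the numbers were not taken as pairs. The fit of the 16 libraries of 1 date made 32 of 33 calls (Dusp10 with IL4 was lost, edgeR adjusted p = 0.0518). Dusp2 passed the fold threshold for NKO against WT at KLA with DESeq2 (-0.60). In NKO against WT at RANKL, the filter on a mean of 5 CPM left 515 genes higher and 653 lower over all genes. Over all genes the adjusted p alone called 1.50 to 4.05 times as many genes as with the fold threshold in 15 of 23 comparisons, for instance 1978 higher and 1424 lower in place of 549 and 318 with IFNβ. The alternative size factors moved the share of calls that were higher in the poly I:C interaction to 55.1% from 65.9%. The median of all genes for KLA in WT moved from -0.14 to 0.00 without a filter. Depth limits Dusp14, which had 3 counts or fewer in both libraries of some groups, and precision rests on 2 libraries per group.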
